A study of Rattus norvegicus with 16 samples.

Results

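The genes described here are those that interferon-gamma (IFN-γ) is best known to switch on in a responding cell: the guanylate-binding protein (GBP) genes Gbp1, Gbp2, Gbp4 and Gbp5, the immunity-related GTPase (IRG) genes Irgm, Igtp and Iigp1, the interferon regulatory factor (IRF) genes Irf1 and Irf8, and Ido1. They were taken by gene symbol, and 9 of the 10 have a row among the 21021 genes listed, the exception being Iigp1. The study sequenced the transcripts of dorsal root ganglia (DRG) L3-L5, the clusters of sensory neurons and glia beside the spinal cord, in adult female Sprague-Dawley rats on the side of a bone tumor. Walker 256 mammary gland carcinoma cells were implanted into the left tibia (tumor cell implantation, TCI), and ganglia were taken on day 1, 7 or 14 after TCI. The sham rats, which have no tumor, were taken on day 14 only, so no sham group matches day 1 or day 7 in time. The labels name PBS as their injection and the study's methods name boiled tumor cells. Each group has 4 samples, and the pooled ganglia of 1 rat are 1 sample. Sample 2 of day 1 and sample 3 of day 7 were not kept by the study, so results are given over the other 14 samples and, where it matters, over all 16.

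IFN-γ is made mainly by T cells and natural killer cells. It binds the receptor pair Ifngr1 and Ifngr2 and signals through the kinases Jak1 and Jak2 to genes that carry the GAS element of DNA. Type I interferons (IFN-α and IFN-β) bind another receptor, Ifnar1 and Ifnar2, and act through a complex that holds STAT2 and IRF9 on the ISRE element. GBPs and IRGs are large GTPases that attack the membranes around intracellular microbes, IRF1 and IRF8 are transcription factors, and IDO1 breaks down tryptophan to kynurenine. The systems overlap, since IRF1 also binds ISRE-like sites and several GBP genes answer to type I interferon too. In bulk RNA, more cells of one type and more RNA per cell cannot be told apart.

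Promoter sequence was examined for the letters of these elements, from 250 bases before to 50 bases after the gene start in RefSeq (build GRCr8), read 5′ to 3′ on the strand of the gene. The table holds 9 starts for 8 of the genes, with 2 for Gbp1. The GAS letters TTCNNNGAA, which read the same on both strands, occurred in 4 of the 8 genes (Irf1, Irf8, Igtp and Irgm), and in 9.39% of all 27457 genes of the table. The core shared by ISRE and IRF sites, GAAANNGAA or its other strand TTCNNTTTC, occurred in 6 of the 8 (Gbp1, Gbp2, Gbp4, Gbp5, Igtp and Irgm), and in 10.3% of all genes. A match describes letters and does not show a bound site. The stretches are shown because they separate the IRF genes, with GAS letters only, from the GBP genes, with the ISRE core only, and from Igtp and Irgm, with both. Capitals mark the matched letters.

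For the IRF genes, Irf1 lies at chr10:38417768-38417826 (plus strand) and Irf8 at chr19:65699079-65699156 (plus strand), where GAS letters occur at separate positions.
Irf1: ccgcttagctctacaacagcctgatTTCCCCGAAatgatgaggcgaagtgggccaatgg
Irf8: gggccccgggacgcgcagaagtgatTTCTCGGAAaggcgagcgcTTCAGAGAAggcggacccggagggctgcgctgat
In the IRG genes, Igtp at chr10:42874908-42874977 (plus strand) and Irgm at chr10:33742579-33742648 (minus strand), the GAS letters are followed closely by the ISRE core.
Igtp: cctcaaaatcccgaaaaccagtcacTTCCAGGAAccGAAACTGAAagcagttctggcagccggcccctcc
Irgm: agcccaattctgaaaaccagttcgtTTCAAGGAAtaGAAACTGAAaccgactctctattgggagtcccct
In the GBP genes, Gbp2 at chr2:234005672-234005730, Gbp4 at chr2:233978452-233978510, Gbp5 at chr2:233910919-233910977 and the downstream start of Gbp1 at chr2:234072270-234072334 (all plus strand), the ISRE core occurs alone, and in Gbp1 it is matched in overlapping positions.
Gbp2: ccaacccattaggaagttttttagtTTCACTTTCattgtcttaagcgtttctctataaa
Gbp4: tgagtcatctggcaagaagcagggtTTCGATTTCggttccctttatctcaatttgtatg
Gbp5: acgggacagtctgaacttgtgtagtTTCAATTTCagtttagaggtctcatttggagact
Gbp1: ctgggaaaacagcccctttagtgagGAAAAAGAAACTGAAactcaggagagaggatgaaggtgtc

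Levels are given in FPKM, fragment counts scaled by transcript length and by the mapped fragments of the sample, so they can be set side by side between genes. The samples carried RNA of nerve ganglia: the summed level of 12 neuronal markers lay between 8815 and 10990 FPKM over the 14 samples. Sample 3 of day 7 stood apart, with a summed level of 10 skeletal muscle markers of 19518 FPKM, against 14.2 to 19.0 in the other day 7 samples, and sample 4 of the sham group reached 455 FPKM against 13.1 in the lowest sham sample. Sample 2 of day 14, which was kept, was the highest of its group for all 9 genes, and the day 14 ratios and counts below are also given without it. Because it was singled out by its values of these same genes, results without it show dependence on that sample and are no separate evidence.

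Gbp2 was the most abundant of the GTPases in every group. It measured 5.42, 6.51, 8.44 and 6.11 FPKM in the 4 sham samples and 8.68, 7.98 and 8.27 FPKM in the 3 day 1 samples. On day 7 it measured 66.2, 67.4 and 60.6 FPKM, and on day 14 33.7, 201, 34.5 and 30.3 FPKM. Day 1 overlapped sham, whereas every day 7 and day 14 sample was above every sham sample. The day 7 mean of 64.7 ± 3.64 FPKM (SD, n = 3) was 9.78 times the sham mean of 6.62 ± 1.29 FPKM (SD, n = 4).

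Gbp5, a GBP known for its part in inflammasome assembly, measured 2.84, 3.33, 3.28 and 2.43 FPKM in sham and 4.27, 4.10 and 3.83 FPKM on day 1. On day 7 it measured 18.2, 23.4 and 19.9 FPKM, and on day 14 11.2, 59.2, 9.43 and 9.19 FPKM. The 3 day 1 samples all lay above the 4 sham samples, at 1.37 times the sham mean, and day 7 lay above both, at 6.90 times the sham mean.

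Gbp4 was low and very even in sham, at 0.96, 0.98, 0.92 and 0.93 FPKM, and measured 1.4, 1.2 and 1.21 FPKM on day 1. It then measured 3.98, 5.98 and 3.82 FPKM on day 7 and 2.55, 7.60, 1.92 and 2.37 FPKM on day 14. As for Gbp5, no day 1 sample overlapped sham, and the day 7 mean was 4.85 times that of sham.

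Gbp1 was close to 0 before day 7, at 0.06, 0.02, 0.09 and 0.05 FPKM in sham and 0.11, 0.07 and 0.05 FPKM on day 1. It measured 1.34, 2.07 and 1.81 FPKM on day 7 and 0.86, 4.28, 1.03 and 0.54 FPKM on day 14. In the muscle-bearing sample 3 of day 7 it measured 35.1 FPKM, 20.2 times the mean of the other day 7 samples, the largest such ratio of the GTPases. Because Gbp1 passed the filter on low values (1 FPKM or more in 3 or more samples) only through its day 7 and day 14 samples, it had to differ between groups, and its test is no separate evidence.

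Igtp, an IRG gene, measured 2.92, 2.67, 4.50 and 2.77 FPKM in sham and 3.54, 4.08 and 3.97 FPKM on day 1. It measured 25.1, 25.3 and 24.2 FPKM on day 7 and 19.0, 68.2, 14.1 and 12.2 FPKM on day 14. The 3 day 7 samples were nearly alike, with a mean of 24.9 ± 0.634 FPKM (SD, n = 3), 7.74 times the sham mean.

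Irgm, a regulator of the other IRGs and of autophagy, measured 2.08, 1.82, 3.11 and 2.0 FPKM in sham and 2.86, 2.51 and 3.27 FPKM on day 1. It measured 12, 13.2 and 10.9 FPKM on day 7 and 7.44, 18.8, 4.99 and 6.05 FPKM on day 14. Day 7 and day 14 lay above sham without overlap, at 5.34 and 4.13 times the sham mean. The day 14 ratio rested in part on sample 2, and the mean of the other 3 day 14 samples was 2.73 times that of sham.

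Irf1, a transcription factor that IFN-γ induces directly, measured 3.37, 3.40, 4.17 and 4.41 FPKM in sham and 4.32, 3.86 and 4.78 FPKM on day 1, groups that overlapped. It measured 22.6, 21.3 and 21.7 FPKM on day 7 and 15.5, 65.7, 10.6 and 12.1 FPKM on day 14. The day 7 mean of 21.9 ± 0.654 FPKM (SD, n = 3) was 5.71 times the sham mean.

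Irf8, which is also a lineage factor of monocytes and dendritic cells, measured 0.94, 0.91, 1.48 and 0.95 FPKM in sham and 1.57, 1.33 and 1.21 FPKM on day 1. It measured 10.9, 10.9 and 6.13 FPKM on day 7 and 6.51, 23.3, 4.58 and 5.80 FPKM on day 14. Day 7 stood at 8.67 times the sham mean. It was the only one of the 9 genes that was not highest of day 7 in sample 3, where it measured 8.15 FPKM, between the other values.

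Ido1 was listed at 0 in all sham and day 1 samples. It measured 0.06, 0.18 and 0.10 FPKM on day 7, and 0.00, 0.25, 0.00 and 0.02 FPKM on day 14. In sample 3 of day 7 it reached 3.39 FPKM. It did not pass the filter on low values and was not tested.

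**Figure D1:**
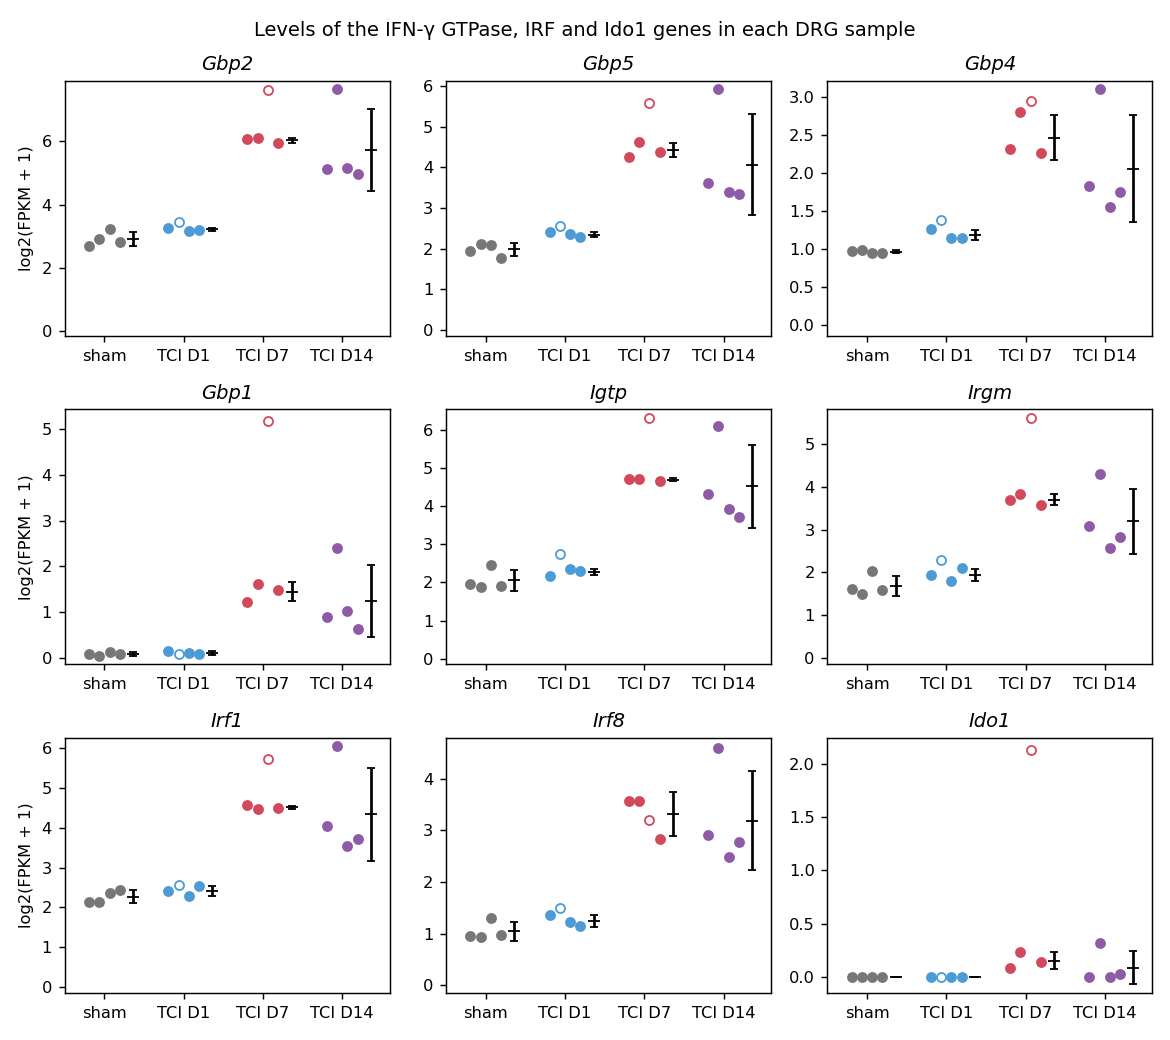
Level of each gene as log2(FPKM + 1) on the vertical axis, by group on the horizontal axis; each point is 1 rat, open points are the samples outside the 14 (sample 2 of day 1, sample 3 of day 7), and the black bar is the mean ± SD of the filled points. Day 7 stands clear of sham and day 1 in the 8 genes other than Ido1, and 1 day 14 sample lies well above the other 3.

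The order of the genes by level was similar in sham and on day 7. In sham, mean FPKM ran from Gbp2 (6.62) through Irf1 (3.84), Igtp (3.22), Gbp5 (2.97), Irgm (2.25), Irf8 (1.07) and Gbp4 (0.948) to Gbp1 (0.055). Igtp differed from each of its neighbours, Irf1 and Gbp5, by less than the SD of Igtp, and Irf8 and Gbp4 differed by less than the SD of Irf8. On day 7 it ran from Gbp2 (64.7) through Igtp (24.9), Irf1 (21.9), Gbp5 (20.5), Irgm (12), Irf8 (9.28) and Gbp4 (4.59) to Gbp1 (1.74), where Irf1 and Gbp5 differed by less than the SD of Gbp5. Gbp2 made up 38 to 42.8% of the summed FPKM of the 6 GTPases in the sham samples and 49.1 to 52.2% in the day 7 samples. Irgm made up 11.9 to 15.3% in sham and 8.97 to 9.62% on day 7. The shares of Gbp2 and Irgm therefore did not overlap between sham and day 7. Nor did those of Gbp4 (4.52 to 6.72% and 3.14 to 4.35%) and Gbp1 (0.13 to 0.442% and 1.06 to 1.51%). Those of Igtp (17.4 to 22.1% and 18.4 to 19.9%) and Gbp5 (16.1 to 21.7% and 14.3 to 17%) did overlap.

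Differences between groups were fitted on log2(FPKM + 1) for all 14023 genes that passed the filter, with limma and Benjamini-Hochberg adjustment over all of them. A gene was called at the study's cut-offs, a log2 difference of at least 1 and an adjusted p of at most 0.001, and at a looser adjusted p of at most 0.05. The difference is on the log2(FPKM + 1) scale, which understates the change of low genes such as Gbp1 and Gbp4. The day 1, day 7 and day 14 comparisons share the sham samples. Labels tell the samples apart as separate replicates, and p-values measure the spread between them.

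On day 1, none of the 8 genes tested was called at either cut-off, as was 0% of all genes at the stricter and 0% at the looser one. The differences were all positive but small, from 0.03 ± 0.31 (SE) for Gbp1 to 0.36 ± 0.46 for Gbp5, with limma adjusted p from 0.991 to 0.999. Over all genes, 734 had an unadjusted p under 0.05. Of the 8, Gbp4 and Gbp5 had every day 1 sample above every sham sample, a separation that 6.17% of all genes showed.

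On day 7, all 8 genes were called higher than sham at the looser cut-off, as were 3.93% of all genes tested, and 3 of the 8 at the study's cut-off, as were 1.83% of all genes. The called genes were Gbp2, with a log2 difference of 3.12 ± 0.49 (limma adjusted p = 0.000878), Igtp, with 2.64 ± 0.42 (0.00096), and Irgm, with 2.01 ± 0.30 (0.000732). The other 5 had limma adjusted p from 0.00142 to 0.00797, at log2 differences of 2.44 ± 0.46 for Gbp5, 2.28 ± 0.39 for Irf8, 2.25 ± 0.44 for Irf1, 1.50 ± 0.28 for Gbp4 and 1.37 ± 0.31 for Gbp1. The median of the 8 was 2.27, beside 0.04 over all genes. Every day 7 sample lay above every sham sample for each of the 8, which 23.8% of all genes showed. Gbp1 passed the filter only through its later samples, whereas the other 7 passed it in the sham and day 1 samples alone. All 7 were called at the looser cut-off, beside 2.44% of the 13335 genes that passed in the same way.

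Which genes passed the stricter cut-off on day 7 turned on single libraries. The fit pools the spread of the 4 groups, and sample 2 of day 14 set much of it: without that sample the standard error of Gbp2 went from 0.49 to 0.10 and all 8 genes passed, as did 3.38% of all genes, with limma adjusted p of at most 4.07e-06. The sample was singled out by its high values of these genes, so the smaller spread follows from that choice. This count, in which Gbp1 keeps the limit given above, is therefore no stronger support. Leaving out any 1 of 11 other samples gave 0 of 8 on day 7, while the looser count remained 8 of 8 each time. With all 16 samples, 7 of the 8 passed, as did 2.38% of all genes, and Gbp1 did not (log2 difference 2.30 ± 0.65, limma adjusted p = 0.0222).

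On day 14, all 8 genes were higher than sham at the looser cut-off, as were 2.58% of all genes tested, and 0 of 8 at the study's cut-off, as were 0.642% of all genes. Gbp2 led with a log2 difference of 2.81 ± 0.45 (limma adjusted p = 0.00185), followed by Igtp with 2.46 ± 0.39 (0.0016), Irf8 with 2.15 ± 0.36 (0.00221), Gbp5 with 2.08 ± 0.43 (0.00701) and Irf1 with 2.07 ± 0.40 (0.00517). Irgm, Gbp1 and Gbp4 had smaller differences of 1.51 ± 0.28, 1.16 ± 0.28 and 1.10 ± 0.26. Every day 14 sample was above every sham sample for each of the 8, as for 13.8% of all genes. The 7 genes that passed the filter in the sham and day 1 samples alone were all called at the looser cut-off, beside 1.63% of such genes. Without sample 2 of day 14, 6 of the 8 passed the study's cut-off, as did 1.24% of all genes. Gbp1 (0.77 ± 0.11) and Gbp4 (0.75 ± 0.12) fell under the limit on the difference. Their limma adjusted p of 0.00107 and 0.00161 also lay above the limit of 0.001. With all 16 samples none passed the study's cut-off, as did 0.66% of all genes, and Gbp1 had a limma adjusted p of 0.313.

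Day 7 was then set against day 1, within TCI rats. The difference does not use the sham samples, but its standard error and p do, through the spread pooled over the 4 groups. All 8 genes, with the limit given above for Gbp1, were higher on day 7 at the looser cut-off, as were 3.44% of all genes. Their log2 differences ran from 1.28 ± 0.30 for Gbp4 to 2.82 ± 0.52 for Gbp2. None passed the stricter cut-off, as 0.884% of all genes did, and the limma adjusted p of the 8 ran from 0.004 to 0.02. Left out one at a time, samples 3 and 4 of day 1 and sample 2 of day 7 each brought the looser count to 5, and without sample 2 of day 14 all 8 passed the stricter cut-off, as did 2.87% of all genes.

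From day 7 to day 14 the 8 genes differed by -0.13 to -0.50 on the log2 scale, smaller in size than the standard error for 6 of them. Neither cut-off called any of them lower, as it called 0.0143% and 0.0499% of all genes. Over all genes 1396 had an unadjusted p under 0.05. Sample 2 of day 14 bore on this too. In day 14 samples 1, 3 and 4, 7 of the 8 genes lay below all 3 day 7 samples, the exception being Irf8. The share of all genes with this separation was not counted, so it is not read as a trait of these genes. That sample was singled out by its high values of these genes, so leaving it out lowers both the day 14 mean and the spread. The fit without it shows how far the result rests on that sample and is no test of a fall. In that fit, 6 of the 8 were lower on day 14 at a limma adjusted p of at most 0.05 with no limit on the difference, as were 1.28% of all genes. The differences were -0.96 ± 0.11 for Gbp2, -0.97 ± 0.11 for Gbp5 and -0.75 ± 0.12 for Irf1, whereas Igtp (-0.70 ± 0.16, adjusted p = 0.055) and Irf8 (-0.60 ± 0.19, adjusted p = 0.161) did not pass in limma.

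**Figure D2:**
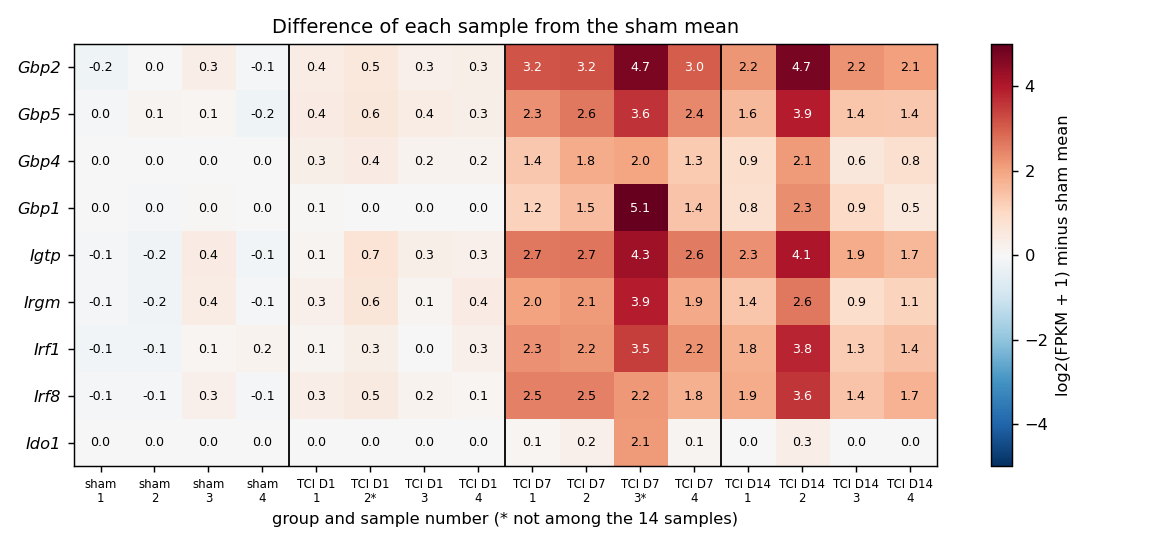
Each cell is 1 gene (rows) in 1 sample (columns), colored by its log2(FPKM + 1) minus the mean of the 4 sham samples, with asterisks on the samples outside the 14. Sham and day 1 are pale, day 7 and day 14 are red, and sample 3 of day 7 and sample 2 of day 14 are the darkest columns.

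The 2 darkest libraries differed in which genes were high. In sample 2 of day 14 the ratio to the mean of the other day 14 samples ran from 3.05 for Irgm and 3.33 for Gbp4 to 5.96 for Gbp5 and 6.14 for Gbp2. In sample 3 of day 7 the ratio was 20.2 for Gbp1 and 3.96 for Irgm, but 1.46 for Gbp4 and 0.878 for Irf8. Cd3e, a chain of the T cell receptor complex, measured 12.7 FPKM in the former against 2.89 to 3.94 FPKM in the rest of day 14, and 2.59 FPKM in the latter against 4.45 to 11.6 FPKM in the rest of day 7. Ifng was likewise highest of its group in sample 2 of day 14 and not in sample 3 of day 7. The part of muscle RNA or of T cells in these values was not tested.

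Other GBP and IRG genes were looked up by gene identifier, because several stand in the tables under provisional symbols. This search was made after values had been seen. It found 16 further genes, 4 of them pseudogenes, of which 10 were tested. At the looser cut-off 7 of the 10 were higher than sham on day 7, beside 3.93% of all genes, and 8 on day 14, beside 2.58%. Without sample 2 of day 14 these counts were 8 and 7, beside 3.94% and 1.74%. At the study's cut-off they were 4 and 3, beside 1.83% and 0.642% of all genes, and single samples left out moved each between 0, as without any 1 sham sample, and 7, without sample 2 of day 14. Of the 10, 7 also passed the filter on low values in the sham and day 1 samples alone. At the looser cut-off 6 of these 7 were higher on each day, beside 2.44% on day 7 and 1.63% on day 14 of the 13335 genes that passed in the same way. Ifi47 stood at 25.4 ± 1.96 FPKM on day 7 (SD, n = 3) against 1.85 ± 0.498 FPKM in sham (SD, n = 4), a log2 difference of 3.23 ± 0.46 (limma adjusted p = 0.000482), and Irgm2 rose by 2.52 ± 0.38 (0.00076). Gbp7, listed as LOC685067 and the neighbour of Gbp5 and Gbp4 on chromosome 2, rose by 2.12 ± 0.41 (limma adjusted p = 0.00322). Irgq, a divergent member of the IRG family, was at 32.8 ± 0.501 FPKM in sham and 30.4 ± 0.981 FPKM on day 7 (limma adjusted p = 0.0835). In sample 3 of day 7 the pseudogene Gbp6-ps2 measured 21.0 FPKM, against a mean of 0.52 FPKM in the other day 7 samples, beside the 35.1 FPKM of Gbp1. The GBP genes lie side by side and resemble each other, so reads may be split between copies, and values of single GBP genes are uncertain to that extent.

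The genes of the IFN-γ axis itself had smaller differences, with Il18 at their head. Ifng, the gene of the cytokine, was listed at 0 in all sham and day 1 samples, at 0.41, 0.64 and 0.08 FPKM on day 7, and at 0.08, 0.98, 0.08 and 0.17 FPKM on day 14, too low to be tested. Of 12 tested genes of the axis (receptors, kinases, STATs, feedback inhibitors and the inducing cytokines IL-12 and IL-18), 3 were higher on day 7 at the looser cut-off, beside 3.93% of all genes, with a median log2 difference of 0.60. Among these were Il18 and Tbx21, the T helper factor that drives Ifng. Il18 measured 0.36 to 0.85 FPKM in sham, 0.33 to 0.69 FPKM on day 1 and 3.49 to 4.78 FPKM on day 7, and Tbx21 0.03 to 0.05, 0.02 to 0.03 and 0.98 to 2.45 FPKM. Like Gbp1, both passed the filter only through their day 7 and day 14 samples, so their calls are no separate evidence. Of the 9 genes of the axis that passed the filter in the sham and day 1 samples alone, 1 was higher on day 7, beside 2.44% of such genes. Tbx21 was named after its value was seen. The receptor genes differed by 0.45 ± 0.08 for Ifngr1 and 0.38 ± 0.10 for Ifngr2, and the kinases by 0.11 ± 0.06 for Jak1 and 0.34 ± 0.14 for Jak2, all under the limit of 1. Socs1, a feedback inhibitor, differed by 1.03 ± 0.34 (limma adjusted p = 0.0507). The smallest difference was that of Il12rb2, at -0.01 ± 0.08.

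A list of 22 other tested genes known as IFN-γ targets moved with the GTPases. On day 7, 18 of the 22 were higher at the looser cut-off, beside 3.93% of all genes, with a median log2 difference of 1.91. On day 14 the count was 18, beside 2.58%, with a median of 1.57, and it was 16 without sample 2 of day 14, beside 1.74%. Among the 20 that also passed the filter in the sham and day 1 samples alone, 16 were higher on each day, beside 2.44% and 1.63% of such genes. At the study's cut-off 12 were higher on day 7 and 8 on day 14, beside 1.83% and 0.642% of all genes. These counts turned on single libraries: the day 7 count ran from 2, without sample 1 of day 7, to 18, without sample 2 of day 14, and the day 14 count from 1, without sham sample 1, 2 or 3, to 15, without sample 2 of day 14. Cxcl9, a chemokine that draws T cells and is a marker of IFN-γ, rose by 3.44 ± 0.56 on day 7 (limma adjusted p = 0.00119), from a range of 1.37 to 4.55 FPKM in sham to 31.3, 40.9 and 32.4 FPKM. Cxcl10, its relative that both kinds of interferon induce, rose by 3.38 ± 0.52 (0.000877). Ciita, the master regulator of MHC class II genes, measured 0.24 to 0.38 FPKM in sham, 0.23 to 0.26 FPKM on day 1, 1.42 to 4.56 FPKM on day 7 and 1.69 to 5.74 FPKM on day 14. It passed the filter only through the later days, as did Cxcl11. The smallest difference was that of Gch1, at 0.02 ± 0.15.

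Type I interferon was then asked about, since both systems share part of their targets. Ifnb1 was listed at 0 in all sham and day 1 samples and reached 0.11 FPKM at most. Of 7 tested genes of the type I axis, 1 was higher on day 7 at the looser cut-off, beside 3.93% of all genes. This was Irf7, with 2.58 ± 0.56 (limma adjusted p = 0.00688). All 7 passed the filter in the sham and day 1 samples alone, and 2.44% of such genes were higher on day 7. Stat2 and Irf9, which bind the ISRE together, differed by 0.84 ± 0.25 and 0.67 ± 0.13, and Ifnar1 and Ifnar2 by 0.17 ± 0.07 and 0.46 ± 0.12. Of 32 tested genes known as type I interferon-stimulated genes, 23 were higher on day 7 at the looser cut-off, beside 3.93% of all genes, with a median of 1.23. Without sample 2 of day 7 this count was 13. On day 14, 22 were higher, beside 2.58% of all genes, with a median of 1.21, and without sample 2 of day 14 the count was 8, beside 1.74%. Among the 27 that also passed the filter in the sham and day 1 samples alone, 20 were higher on each day, beside 2.44% and 1.63% of such genes. At the study's cut-off 3 were higher on each day, beside 1.83% and 0.642% of all genes. Single samples left out moved the day 7 count from 0, without sample 2 of day 7, to 23, without sample 2 of day 14, and the day 14 count from 0, without any 1 sham sample, to 7, without sample 2 of day 14. Bst2, a protein that tethers budding virus, rose by 2.40 ± 0.36 (limma adjusted p = 0.000706), and Rsad2, an antiviral enzyme, by 2.37 ± 0.49 (0.00506). Ifit1 had the smallest difference, at 0.15 ± 0.87, with values between 0.02 and 4.06 FPKM in the 3 day 7 samples.

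Over the 14 samples most genes of both target lists were higher on day 7 and day 14 at the looser cut-off. At that cut-off, over single left-out samples, the type I count ran from 13 to 23 on day 7 and from 8 to 25 on day 14. The count of IFN-γ targets was 17 to 19 on day 7 and 16 to 18 on day 14. At the study's cut-off both lists turned on single libraries, on day 7 from 0 to 23 for type I and from 2 to 18 for IFN-γ targets. The lists also differed in size of the change and on day 1. All of this is a description, without a test of the difference between lists. The median day 7 difference was 2.27 for the 8 GTPase and IRF genes and 1.91 for the IFN-γ targets, and 1.23 for the type I list. On day 1 every sample lay above every sham sample for 14 of the 32 type I genes, Isg15 among them, and for Irf7 of the type I axis. The same held for 2 of the 8 GTPase and IRF genes and for 3 of the 22 IFN-γ targets (Cxcl10, Ifi30 and Vcam1), beside 6.17% of all genes. None of these was called on day 1. Many of the genes answer to both kinds of interferon, and the lists were assembled from general knowledge.

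**Figure D3:**
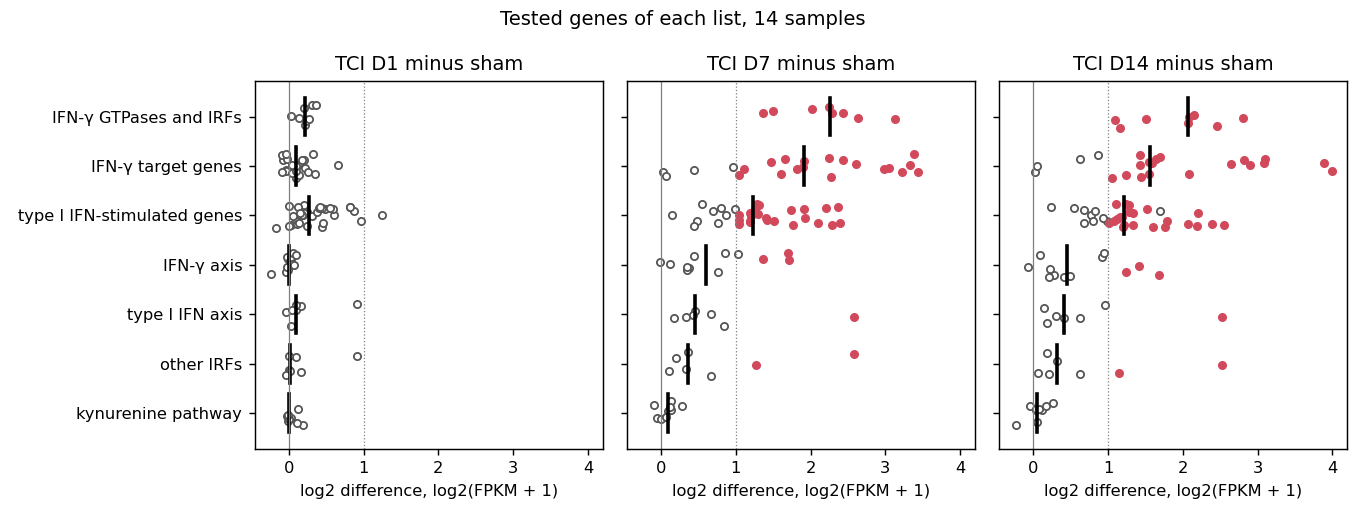
Log2 difference from sham (horizontal axis, log2(FPKM + 1) scale) of each tested gene of 7 lists on day 1, day 7 and day 14, over 14 samples; red points passed the looser cut-off, black bars are medians, and the dotted line is the limit of 1. All 8 GTPase and IRF genes are red on day 7 and day 14, and no point is red on day 1.

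Among the other IRF genes, 2 of 7 were higher on day 7 at the looser cut-off, beside 3.93% of all genes. They were Irf7 (above) and Irf5, a factor of macrophages, with 1.27 ± 0.25 (limma adjusted p = 0.00396). On day 14 the count was 2 of 7, beside 2.58%, and 1 of 6 tested without sample 2 of day 14, beside 1.74%. Of the kynurenine pathway around Ido1, none of 9 tested genes was called on day 7 or day 14. The median was 0.09 on day 7, and the genes at its ends were Qprt with 0.29 ± 0.16, Slc3a2 with 0.14 ± 0.06 and Kyat1 with -0.09 ± 0.05.

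Markers of immune cells were higher on the same days as the GTPases. Of the 11 macrophage markers, 9 passed the filter in the sham and day 1 samples alone. At the looser cut-off all 9 were higher on day 7, beside 2.44% of such genes, and 8 on day 14, beside 1.63%. Without sample 2 of day 14, 6 of all 11 were higher on day 14, beside 1.74% of all genes, where 9 of the 11 were with it, beside 2.58%. The summed level of the 11 was 30.8 to 57.2 FPKM in sham, 42.0 to 53.0 FPKM on day 1, 330 to 452 FPKM on day 7 and 169 to 620 FPKM on day 14. Of the 9 tested T cell markers, 8 passed the filter only through the day 7 and day 14 samples, as did all 7 tested markers of natural killer and cytotoxic cells, so their calls were set by the filter and only levels are given. The summed level of 10 T cell markers was 5.85 to 8.68 FPKM in sham, 6.26 to 8.69 FPKM on day 1, 43.0 to 101 FPKM on day 7 and 35.1 to 103 FPKM on day 14. Cd3e was at 0 to 0.12 FPKM in sham and 0 to 0.04 FPKM on day 1, and at 6.94, 11.6 and 4.45 FPKM on day 7. Markers of natural killer and cytotoxic cells had summed levels of 0.73 to 1.57 FPKM in sham, 0.78 to 0.92 FPKM on day 1, 25.7 to 53.7 FPKM on day 7 and 9.21 to 56.1 FPKM on day 14. Ncr1, which marks natural killer cells proper, stayed at 0.32 to 1.14 FPKM in all day 7 and day 14 samples and was 0.30 to 0.74 FPKM before.

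Markers of other cell types were then examined. None of the 12 neuronal, 5 satellite glia, 6 Schwann cell, 5 endothelial or 3 tested carcinoma markers was called on day 7 or day 14, and without sample 4 of day 7, 1 endothelial marker was called on day 7. B cell markers summed to at most 1.33 FPKM in the 14 samples and none was tested, and the carcinoma marker Epcam was at most 0.68 FPKM. Of the 3 tested dendritic cell markers, the 2 that passed the filter in the sham and day 1 samples alone were not called on either day. Itgax, the third, and both tested neutrophil markers, S100a9 and Csf3r, passed only through the later days. Itgax measured 1.68 to 2.82 FPKM on day 7 and 1.15 to 7.64 FPKM on day 14, against 0.12 to 0.32 FPKM in sham. The summed level of 5 neutrophil markers was 0.65 to 0.99 FPKM in sham and 0.94 to 1.31 FPKM on day 1. It was 4.79 to 19.5 FPKM on day 7 and 1.65 to 3.01 FPKM on day 14. The part of the immune cells in the change of the GTPase and IRF genes was not tested.

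**Figure D4:**
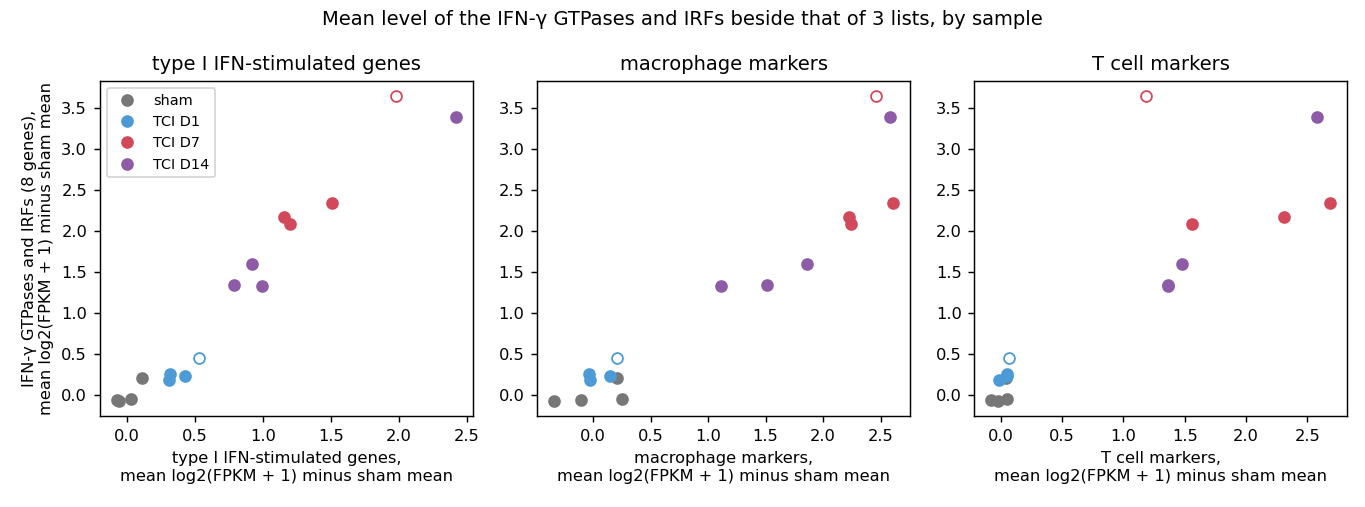
Mean log2(FPKM + 1) of the 8 tested GTPase and IRF genes minus its sham mean (vertical axis) against the same for 33 type I interferon-stimulated genes, 11 macrophage markers and 10 T cell markers (horizontal axes); each point is 1 of the 16 samples and open points are outside the 14. Sample 3 of day 7 (open red) is the highest on the vertical axis, at 3.65, with a T cell value of 1.19, below the other day 7 samples at 1.56 to 2.69.

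Within groups the genes varied together. After the mean of each group was subtracted, each of the 8 genes had a Pearson r of 0.94 to 0.983 with the mean of the other 7 over the 14 samples, which share libraries and in which sample 2 of day 14 weighs heavily. Over all 16 samples r was lowest for Irf8 (0.687) and Gbp1 (0.761). The 10 genes outside the set most like its mean over the 14 samples had r from 0.979 to 0.991. They were Il12rb1 (a receptor chain for IL-12), Parp14, Trim21, Gbp7 (listed as LOC685067), Nlrc5 (the regulator of MHC class I genes), RGD1309362 (an IRG-like gene), Klrk1 (a receptor of natural killer and cytotoxic T cells), LOC100366216, Tapbp (a chaperone of MHC class I) and Ddx60. With all 16 samples Parp14 kept r = 0.99, while Klrk1 had r = 0.645. These correlations are descriptions with no test.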

How the data were processed

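The authors filtered the reads and mapped them with HISAT and Bowtie2, estimated gene expression with RSEM, and deposited 1 table of FPKM values per sample, the unit used here; the submitters' processing notes also name CASAVA 1.4. Genome build and annotation of these tables are not given in the sources used here, and FPKM holds no read totals. Relative depth, read from the smallest values of 19 low genes, lay between 0.941 and 1.14 of the median sample. At most 2.59% of nonzero values were identical in any pair of samples.

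From the deposited FPKM, log2(FPKM + 1) was fitted for the genes that reached 1 FPKM in 3 or more samples (14023 genes over 14 samples, 14087 over 16) with limma 3.58.1 in R 4.3.3, with all 4 groups in 1 linear model and an intensity trend. Cut-offs and the 14 samples follow the study's methods. The test was checked on simulated data. The text names all genes of the set, the core genes of both interferon axes, the 2 largest and 1 smallest day 7 difference of each list, and the 10 genes of most similar pattern, except that some of these genes are not reported here. The genes and lists were chosen with earlier results of these data known. Promoters and gene names come from RefSeq (GRCr8); other genes of the families were matched by gene identifier. Figures were drawn with matplotlib.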

Additional observations from a re-analysis of the deposited data

Results flagged for a closer look

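In groups of 4 samples, the gap between the highest sample and its neighbour, divided by the range of the group, exceeded Dixon's 95% critical value in 16 of 34 groups of values, where chance gives about 1 in 20. Sample 2 of day 14 was that sample in 8 cases, with a ratio of 0.869 for Gbp1, 0.975 for Gbp2, 0.889 for Gbp4, 0.96 for Gbp5, 0.878 for Igtp, 0.911 for Irf1, 0.897 for Irf8 and 0.92 for Ido1. Sample 3 of day 7 was it in 6, with 0.978 for Gbp1, 0.951 for Gbp2, 0.936 for Irgm, 0.978 for Igtp, 0.958 for Irf1 and 0.964 for Ido1. Sample 3 of the sham group was it in 2, with 0.863 for Igtp and 0.93 for Irf8. The 9 genes come from the same libraries, so these are not separate events.

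The difference from sham changed between day 1 and day 7 for all 8 genes tested (limma, adjusted p of at most 0.05). The day 7 minus day 1 difference was 1.34 for Gbp1, 2.82 for Gbp2, 1.28 for Gbp4, 2.08 for Gbp5, 1.75 for Irgm, 2.41 for Igtp, 2.11 for Irf1 and 2.08 for Irf8 on the log2(FPKM + 1) scale.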

How the results depend on the processing

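Counts of the 8 tested genes at the study's cut-off were 0 on day 1, 3 on day 7 and 0 on day 14 against sham, 0 for day 7 against day 1 and 0 lower on day 14 than day 7. Over all genes the shares called were 0%, 1.83%, 0.642%, 0.884% and 0.0143% in the same order. Shares are also given above for all 16 samples and for the fit without sample 2 of day 14. They are not given for the other settings, so counts under those do not show whether these genes stand out from all genes. The counts on day 1 and of day 14 against day 7 did not move under the alternatives run. The day 7 count was 7 with all 16 samples, 8 with only the groups compared in the fit, 1 without the intensity trend, 0 after quantile normalization, 1 with median-ratio size factors, 0 with no filter on low values, 5 with a pseudocount of 0.1, and 8 with array quality weights on all 16 samples. With the replicate number as a block it was 0; same-numbered samples did not deviate together (median r 0.00257, -0.0952 to 0.269 over 18 pairs), so the numbers do not pair the samples. The day 14 count was 2 with the pseudocount of 0.1 and 6 with array weights. The count for day 7 against day 1 was 1 with all 16 samples, 7 with only the groups compared and 8 with array weights. At an adjusted p of at most 0.05, with or without the limit on the difference, all 3 counts were 8. Left out in turn, single samples gave 0 to 8 on day 7, 0 to 6 on day 14 and 0 to 8 for day 7 against day 1, with the upper ends reached without sample 2 of day 14. With 15 samples, all but that one, a setting chosen after seeing the data, the counts were 7, 2 and 7.

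At the looser cut-off the day 7 count was 8 under all settings except 6 with a mean of at least 5 FPKM, which tests fewer of the genes. The looser counts under the alternative settings were added after seeing the data. Against day 1 it was 6 with that filter and with the replicate block, and 5 to 8 over left-out samples. On day 14 it was 6 to 8 over left-out samples, 7 with all 16 samples or after quantile normalization, 6 with only the groups compared, array weights or the filter at 5 FPKM, and 5 with the 15 samples. No called difference changed sign. The left-out samples for the other lists, and the counts over genes that passed the filter in the sham and day 1 samples alone, were added after seeing the data and stand beside those lists. FPKM without read totals leaves counting error unknown, which limits Ido1, Ifng and Gbp1 most.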
